A study of Homo sapiens with 8 samples.

Results

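The 51 genes described here encode the enzymes, regulators and transporters that take glucose carbon through glycolysis, between pyruvate and lactate, into the mitochondrion and around the tricarboxylic acid (TCA) cycle. They were chosen by gene symbol from knowledge of these pathways, and with earlier results of these data known. All 51 were found, each under 1 identifier, among the 21059 genes of the table. By role they were 13 glycolytic enzymes, 4 enzymes that set the level of fructose 2,6-bisphosphate, 4 lactate enzymes and transporters, 2 subunits of the mitochondrial pyruvate carrier, 5 components of the pyruvate dehydrogenase complex, 4 kinases and 1 phosphatase of that complex, 15 TCA cycle genes and 3 genes of pyruvate and malate side reactions. Glucose transporters and hexokinases were not among them.

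The cells were MDA-MB-157, an established human breast cancer cell line that the labels give as estrogen receptor negative. RNA was sequenced after cells had been conditioned in low-glucose medium, per the study's methods, and kept in T25 flasks without serum for 48 hours with glucose at 5 mM, the low glucose group, or at 25 mM, the high glucose group, and 4 libraries were made of each. The question is how transcript levels differ when glucose is raised to a concentration used to model the hyperglycemia of diabetes. Only 1 cell line enters, no library with mannitol or another osmotic control was analysed here, and all cells were without serum, so the effect of glucose as a fuel and the effect of osmolarity cannot be told apart. Whether the 4 replicates were separate cultures or experiments is not stated, so p-values measure the spread between these libraries, which may be technical. In bulk RNA, a change in the number of cells that carry a transcript and a change in its amount per cell cannot be told apart.

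As background, glycolysis splits glucose into pyruvate in the cytosol, and phosphofructokinase is its committed step, which fructose 2,6-bisphosphate activates. Pyruvate is either reduced to lactate by lactate dehydrogenase and exported through monocarboxylate transporters, or it enters the mitochondrion and is turned into acetyl-CoA by the pyruvate dehydrogenase complex, which pyruvate dehydrogenase kinases switch off. The TCA cycle then oxidizes the acetyl group, and many tumor cells are known for high lactate output even when oxygen is present. Several of the steps are made by families of isoenzymes that differ in tissue, cofactor or regulation, and the members of such families are compared with each other here.

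Values are read counts scaled to a common library size (counts per 1000000 reads, CPM) that the authors scaled with the trimmed mean of M values (TMM) method. The libraries held an estimated 9721648 to 12482546 reads, and the value of 1 read was 0.0706 to 0.0889 CPM. The lowest value of any member in any library was 3.68 CPM, for ALDOC in high glucose replicate 1, and the fewest estimated reads were 45, for PDK4 in low glucose replicate 3, so none of the 51 was at the detection limit and no member was lost to a filter on low values. The label was checked against markers of the line. ESR1, the estrogen receptor, was at 0 to 0.170 CPM in all 8 libraries, whereas VIM, an intermediate filament of mesenchymal cells, was at 4060.0 to 4116 CPM at low glucose and at 2856 to 3282 CPM at high glucose. KRT8 and KRT18, epithelial keratins, were also present, with means of 131 and 233 CPM in the low glucose group and 88.3 and 170.1 CPM in the high glucose group (called lower, adjusted p = 0.00117 and 0.00149). EPCAM, an epithelial adhesion protein, went the other way, from 4.500 ± 0.414 to 6.996 ± 0.445 CPM (log2 change 0.54, adjusted p = 0.00104). PGR, the progesterone receptor, was at means of 4.76 and 5.35 CPM, and ERBB2 at 63.6 and 39.2 CPM. Of 6 markers of other cells, 4 were in the table. PTPRC of leukocytes and ALB of hepatocytes did not exceed 0.364 CPM in any library, CD14 of monocytes was at 0.801 to 1.58 CPM at low glucose and at 2.76 to 5.79 CPM at high glucose, and PECAM1 of endothelium at 0.911 to 1.24 and 1.51 to 2.84 CPM. CD14 and PECAM1 moved with the groups (log2 change 1.20, adjusted p = 0.00252 and log2 change 0.63, adjusted p = 0.00775), and their part in the results was not tested.

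At high glucose 35 of the 51 transcripts were called changed (68.6%), 20 upward and 15 downward, a share near the 66.3% of genes with a mean of at least 4 CPM, which all members reached, and several families and complexes held both rising and falling members. The largest rise was that of PDK4, a pyruvate dehydrogenase kinase, from 4.45 ± 0.559 to 12.3 ± 1.02 CPM (SD, n = 4 in each group, as in all values of this form). The largest falls were those of IDH2, PCK2, PDK2 and PFKL, each to less than 0.5 of its low glucose level. LDHA, the abundant lactate dehydrogenase subunit, rose by a factor of 1.71, whereas GAPDH, the glyceraldehyde phosphate dehydrogenase, had the same mean in both groups, 932 CPM.

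**Figure D1:**
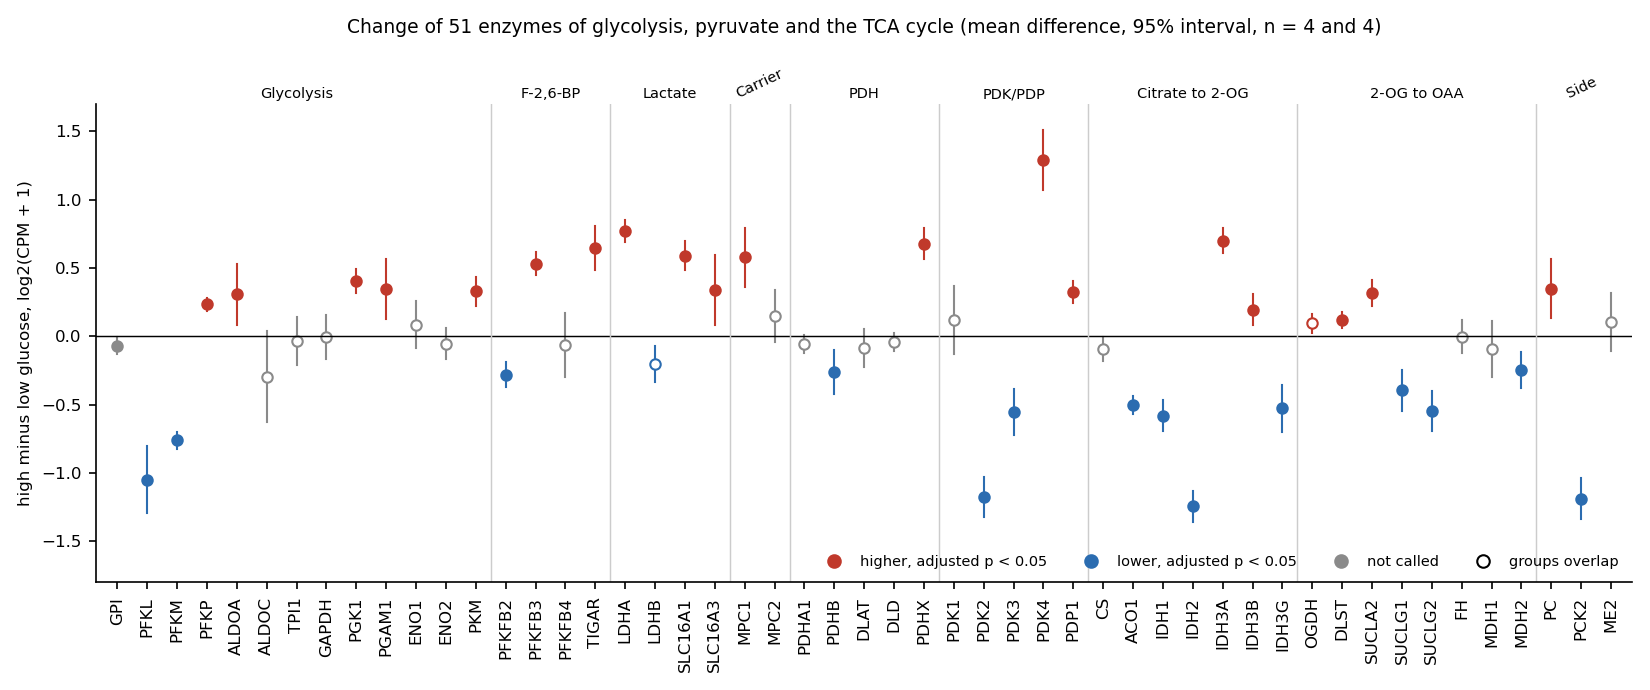
Difference between high and low glucose in log2(CPM + 1) for the 51 genes, ordered along the pathway, with 95% confidence intervals from limma (4 libraries in each group). Red points are higher and blue points lower at an adjusted p under 0.05, grey points were not called, and open points mark groups whose libraries overlap; PDK4 at the top (1.29) and IDH2 at the bottom (-1.24) lie farthest from 0.

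Changes were tested with limma on log2(CPM + 1) across all 21059 genes, with Benjamini-Hochberg adjustment over all of them, and a gene was called at an adjusted p under 0.05. Changes are given on that log2 scale as high minus low glucose. By this rule 46.8% of all genes were called, 22% higher and 24.8% lower. Among the 11725 genes with a mean of at least 4 CPM, which all 51 members reached, 66.3% were called, 33% higher and 33.3% lower. The 35 of 51 members called (68.6%) were thus near the share of equally abundant genes. The libraries of the groups did not overlap in 34 members, 19 higher and 15 lower, beside 44.5% of all genes and 64.4% of those of at least 4 CPM. A call with a change of at least 0.5 on the log2 scale was made for 18 members, 8 higher and 10 lower, beside 24.5% and 33.7% of genes. The median change over the members was -0.004 and the median size of change 0.32, compared with -0.014 and 0.35 over the genes of at least 4 CPM.

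**Figure D2:**
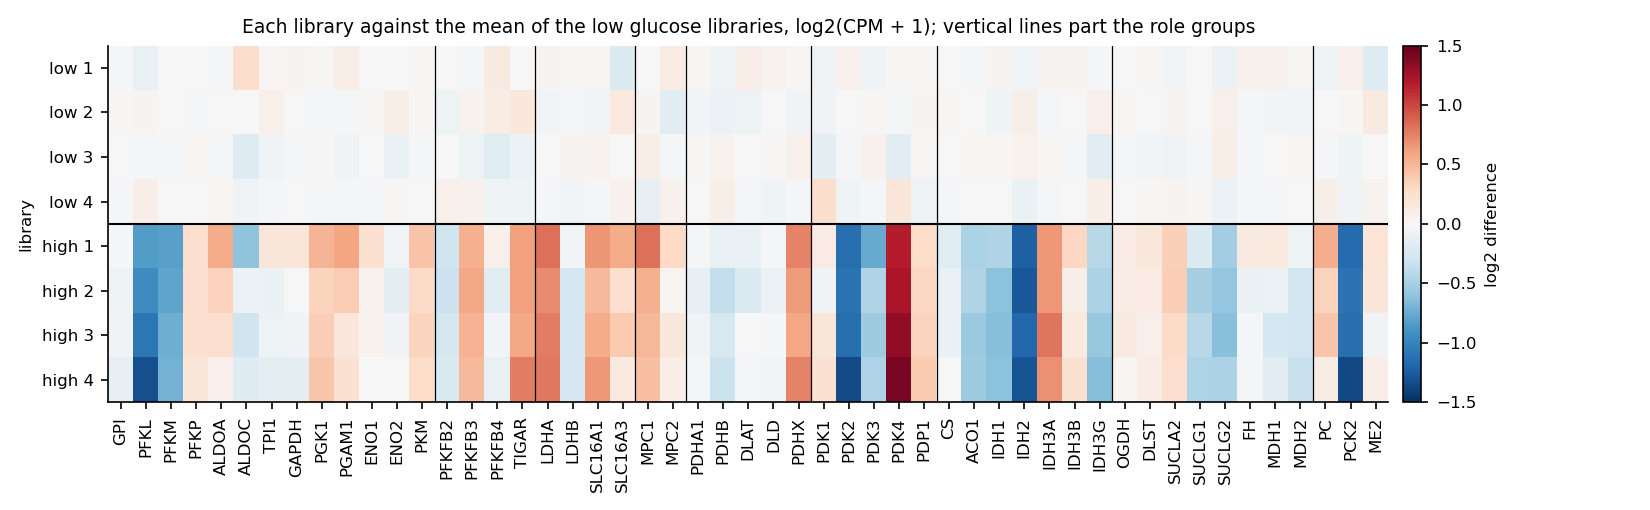
Each of the 8 libraries (rows) against the mean of the 4 low glucose libraries for the 51 genes (columns, in pathway order), as a difference in log2(CPM + 1); red is higher and blue lower. The 4 high glucose libraries show the same bands for PFKL, LDHA, PDK2, PDK4, IDH2, IDH3A and PCK2, and high glucose replicate 1 differs from the other 3 in genes such as ALDOC, MPC1 and PDK3.

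Among the 13 glycolytic enzymes, 5 rose, 2 fell and 6 were not called, and the summed level of the 13 went from 6783 ± 68.3 CPM to 7402 ± 537 CPM. Both falls were in phosphofructokinase, which commits fructose 6-phosphate to glycolysis. PFKL, its liver-type subunit, was at 108, 121, 115 and 126 CPM in low glucose replicates 1 to 4 and at 65.01, 60.6, 54.8 and 46.4 CPM in high glucose replicates 1 to 4. All 4 high glucose libraries were far below all 4 low glucose libraries, and PFKL fell by 1.05 on the log2 scale (SE 0.11, adjusted p = 0.000183). PFKM, the muscle-type subunit, was at 121, 121, 119 and 122 CPM at low glucose and at 68.05, 69.03, 72.3 and 73.5 CPM at high glucose. The replicates of PFKM lay within 5.45 CPM of each other in either group, and it fell by 0.76 (SE 0.027, adjusted p = 2.24e-06). PFKP, the platelet-type subunit, moved the other way, from 126, 124, 129 and 125 CPM to 150.4, 150.3, 149.6 and 144 CPM. This was a small rise with no overlap between groups (log2 change 0.23, adjusted p = 0.000102).

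Per kilobase of transcript, the scale on which levels of different genes can be compared, PFKP made up 37.7% ± 1.03 of summed phosphofructokinase at low glucose and 57.2% ± 0.66 at high glucose. The share of PFKL went from 31.7% ± 1.43 to 19.7% ± 2.21 and that of PFKM from 30.6% ± 0.56 to 23.2% ± 1.57. The 3 subunits were thus at like levels at low glucose, and PFKP was the main one at high glucose. Their sum was lower at high glucose, 127.5 ± 2.43 against 98.9 ± 3.17 CPM per kilobase. These shares and sums are descriptions with no test of their own, and they rest on the length of 1 canonical transcript per gene.

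Of the enzymes that follow in glycolysis, PGK1, PKM, PGAM1 and ALDOA rose and the others were not called. PGK1, phosphoglycerate kinase, which makes the first ATP of the pathway, was at 234, 230.3, 235 and 229.6 CPM at low glucose and at 330.2, 293, 300.0 and 310.2 CPM at high glucose (log2 change 0.41, adjusted p = 0.000121). PKM, pyruvate kinase, which makes pyruvate, rose from 1143 ± 17.97 to 1439 ± 72.6 CPM (log2 change 0.33, adjusted p = 0.000809). PGAM1, phosphoglycerate mutase, rose from 204 ± 10.3 to 261 ± 34.4 CPM (log2 change 0.35, adjusted p = 0.0181). None of these 3 had overlapping groups, and PGAM1 shared 66.9% of its 31-base words with other genes, so its value is uncertain.

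ALDOA, the main aldolase, was at 508, 521, 513 and 528 CPM at low glucose and at 759, 657, 618 and 544 CPM at high glucose. The 4 high glucose libraries spread over 215 CPM against 20.6 CPM at low glucose, with replicate 1 highest and replicate 4 near the low glucose level, and the rise was called narrowly (log2 change 0.31, adjusted p = 0.0323). The call was lost when any of low glucose replicates 1 to 4 or high glucose replicates 2 or 3 was left out (adjusted p = 0.0561 to 0.0762) while the change stayed between 0.29 and 0.32, and it was kept without high glucose replicate 1 or 4. Of the words of ALDOA, 89.6% also occur in at least 1 of 4 other genes of the annotation. The one that shares most had means of 1.86 and 2.67 CPM, so the reads of ALDOA may be split. ALDOC, a second aldolase, was at 6.14 ± 0.980 CPM at low glucose and at 4.83 ± 0.845 CPM at high glucose and was not called (log2 change -0.30, adjusted p = 0.136).

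ENO1, the main enolase and the member with the highest level per kilobase, was at 2817, 2833, 2799 and 2749.6 CPM at low glucose and at 3292, 2900.2, 2901 and 2803 CPM at high glucose. The groups overlapped and it was not called (log2 change 0.085, SE 0.072, adjusted p = 0.393). It was called higher when a trend on transcript length was removed from each library (log2 change 0.169, adjusted p = 0.000573) and when one on GC content was removed (log2 change 0.185, adjusted p = 0.00596). GAPDH, often used as a reference transcript, was at 959, 927, 912 and 928 CPM and 1052, 934, 895 and 845 CPM, with high glucose replicate 1 above and replicates 3 and 4 below every low glucose library. The difference was -0.0045 with an interval of -0.16 to 0.15, so a change of about 0.16 in either direction lies within the error, and its sign depended on the scaling and on the removal of these trends. GPI, TPI1 and ENO2, which are glucose phosphate isomerase, triose phosphate isomerase and the neuronal enolase, changed by -0.067, -0.032 and -0.054 and were not called. The groups of GPI did not overlap (high glucose 329.9 to 353 CPM, low glucose 354 to 364 CPM), and without high glucose replicate 1 it was called lower (log2 change -0.083, adjusted p = 0.0175), as under quantile normalization (log2 change -0.145, adjusted p = 0.00051). GAPDH and TPI1 share 50.4% and 37.2% of their words with other genes, pseudogenes among them, and GPI shares 24.0% of its words.

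Of the 4 genes that make or remove fructose 2,6-bisphosphate, PFKFB3 and TIGAR rose, PFKFB2 fell and PFKFB4 was not called. PFKFB3, a bifunctional enzyme whose kinase activity raises the regulator, was at 121, 128, 118 and 129.5 CPM at low glucose and at 181, 186, 178 and 175 CPM at high glucose. Every high glucose library exceeded every low glucose library by at least 45.3 CPM, and the rise was 0.53 (SE 0.036, adjusted p = 2.95e-05). TIGAR, a phosphatase that removes the regulator, was at 14.3, 16.2, 13.5 and 13.8 CPM at low glucose and at 22.7, 22.6, 21.9 and 25.3 CPM at high glucose. It rose in the same samples and by a like amount (log2 change 0.65, SE 0.069, adjusted p = 0.000255), and the log2 ratio of their CPM was 3.11 ± 0.10 at low and 2.96 ± 0.12 at high glucose, with overlapping groups. PFKFB2, the heart-type enzyme, fell from 36.7 ± 1.69 to 30.02 ± 0.936 CPM (log2 change -0.28, SE 0.039, adjusted p = 0.000883). PFKFB4, a further isoform, was at 4.79 ± 0.595 and 4.52 ± 0.430 CPM (log2 change -0.065, SE 0.099, adjusted p = 0.646). Per kilobase, PFKFB3 held 80.9% ± 0.70 of the 3 PFKFB transcripts at low and 87.9% ± 0.60 at high glucose. TIGAR shares 26.0% of its words with other genes.

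All 4 lactate genes were called, 3 higher and 1 lower, beside 66.3% of all genes with a mean of at least 4 CPM. The 4 together went from 887 ± 17.6 to 1337 ± 56.1 CPM, the largest proportional rise of the role groups, and most of that rise was LDHA. LDHA, the subunit that favors reduction of pyruvate to lactate, was at 563, 533, 550.0 and 539.6 CPM at low glucose and at 966, 890.0, 933 and 944 CPM at high glucose. The lowest high glucose library stood 327 CPM above the highest low glucose library, and LDHA rose by 0.77 (SE 0.034, adjusted p = 4.75e-06). LDHB, the subunit that favors the opposite reaction, was at 167, 164, 170.2 and 161 CPM at low glucose and at 162, 137, 138 and 139 CPM at high glucose. High glucose replicate 1 lay within the low glucose values and the other 3 lay below them, and LDHB was called lower (log2 change -0.20, adjusted p = 0.0197). That call was lost without low glucose replicate 1 or 3 or high glucose replicate 2, 3 or 4 (adjusted p = 0.0508 to 0.054, log2 change -0.199 to -0.182). Of the words of LDHB, 75.5% also occur in at least 1 of 3 other genes, and the one that shares most had means of 0.393 and 0.146 CPM. LDHA shares 25.6% of its words with other genes.

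The log2 ratio of the CPM of LDHA to that of LDHB was 1.749, 1.703, 1.692 and 1.74 in the low glucose libraries and 2.58, 2.70, 2.75 and 2.77 in the high glucose libraries. The ratio was thus 1.97 times as high at high glucose, and in replicate 1, where LDHB was not low, it still exceeded every low glucose library. Per kilobase, LDHA held 65.7% ± 0.44 of lactate dehydrogenase at low and 79.0% ± 0.99 at high glucose, and the sum of both rose from 371 ± 8.16 to 527 ± 21.7 CPM per kilobase.

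The monocarboxylate transporters carry lactate across the cell membrane. SLC16A1 (MCT1) was at 155, 150.1, 159.8 and 151 CPM at low glucose and at 245, 216, 228 and 241 CPM at high glucose, without overlap, and rose by 0.59 (SE 0.044, adjusted p = 4.59e-05). SLC16A3 (MCT4), the transporter typical of lactate-exporting cells, was less abundant, at 18.3, 23.7, 21.1 and 22.3 CPM at low glucose and at 31.7, 25.6, 28.2 and 23.7 CPM at high glucose. Its groups were only 0.0294 CPM apart at their nearest libraries, and it was called higher (log2 change 0.34, adjusted p = 0.0371). The call was lost without low glucose replicate 1, 3 or 4 or high glucose replicate 1, 2 or 3 (adjusted p = 0.0556 to 0.0873), with changes of 0.265 to 0.365. Exons of CSNK1D on the other strand cover 18.5% of the SLC16A3 transcript, CSNK1D had means of 182 and 211 CPM, and whether reads were counted by strand is not established. Per kilobase, SLC16A1 was at 41.03 and 61.95 and SLC16A3 at 8.22 and 10.5 CPM, at low and high glucose.

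**Figure D3:**
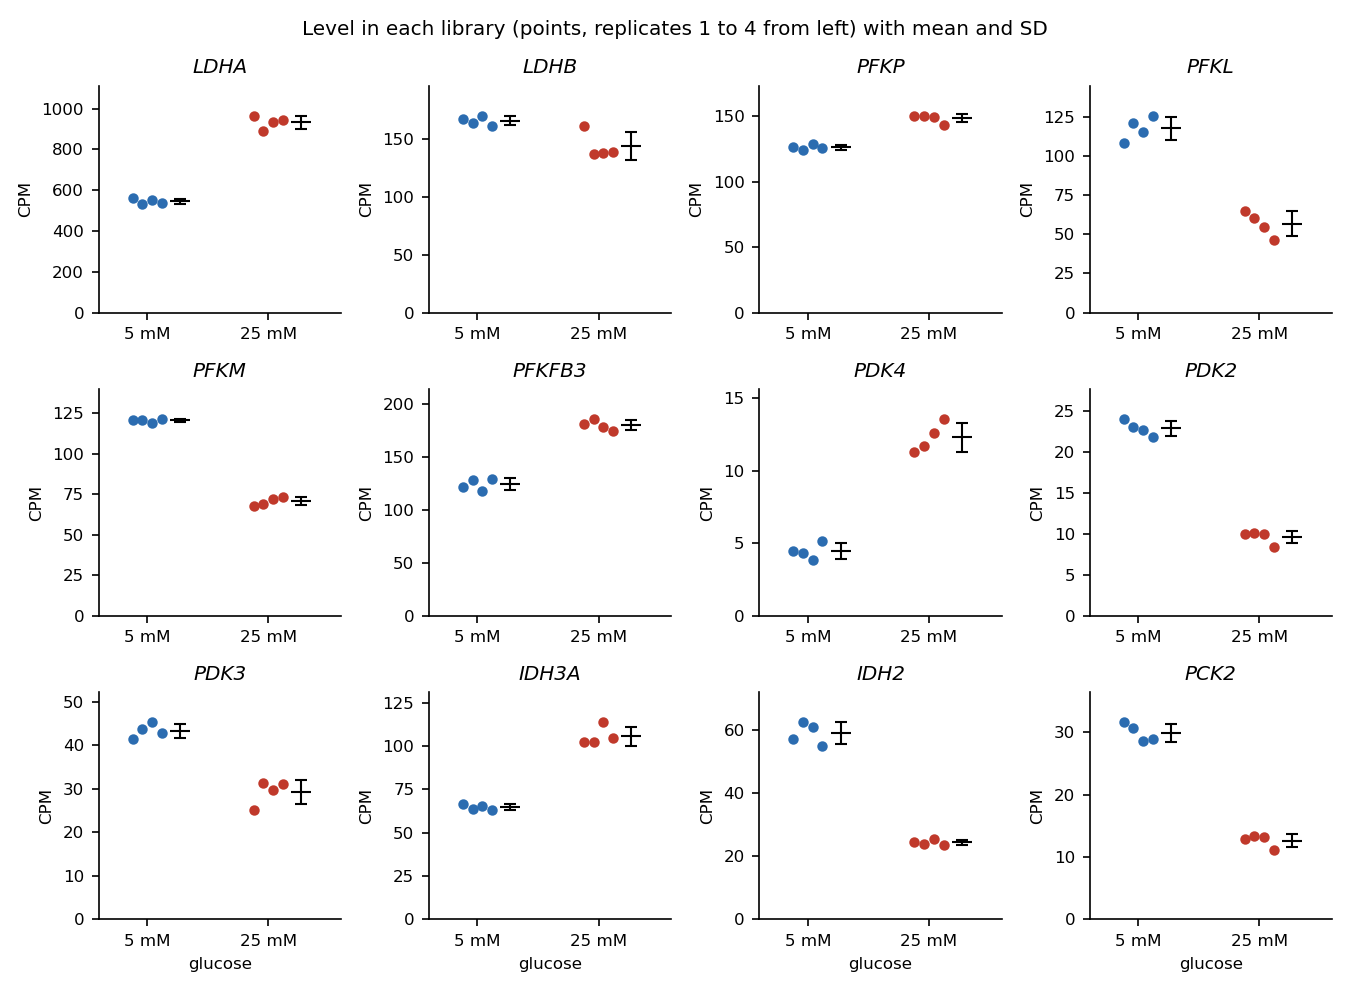
Level in CPM (vertical axes from 0) of 12 genes in the 4 libraries at 5 mM (blue) and 25 mM glucose (red), with the mean and SD of each group as a black bar. LDHA, PFKP, PFKFB3, PDK4 and IDH3A lie higher at 25 mM, PFKL, PFKM, PDK2, PDK3, IDH2 and PCK2 lie lower, and LDHB overlaps through 1 high glucose library at 162 CPM.

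Pyruvate enters the mitochondrion through a carrier of 2 subunits. MPC1 was at 24.2, 24.9, 25.9 and 22.2 CPM at low glucose and at 43.8, 35.5, 34.7 and 33.5 CPM at high glucose, with replicate 1 highest, and rose by 0.58 (SE 0.09, adjusted p = 0.00163). MPC2, its partner, was at 29.2 ± 2.54 CPM at low glucose and at 32.5 ± 2.76 CPM at high glucose and was not called (log2 change 0.15, adjusted p = 0.178). The log2 ratio of MPC1 to MPC2 was -0.263 ± 0.191 at low and 0.179 ± 0.101 at high glucose, without overlap. The difference between the 2 changes was not tested. Exons of DCAF6 on the other strand cover 8.4% of MPC2. DCAF6 fell from a mean of 63.2 to 51.3 CPM (log2 change -0.298, adjusted p = 0.00641), and its part in the value of MPC2 was not tested.

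Within the pyruvate dehydrogenase complex, PDHX rose, PDHB fell and the other 3 components were not called. PDHA1, the alpha subunit of the E1 enzyme and the most abundant of the 5, was at 146, 138, 144 and 143 CPM at low glucose and at 139.9, 131, 137 and 141 CPM at high glucose (log2 change -0.056, adjusted p = 0.165). DLAT and DLD, the E2 and E3 enzymes, changed by -0.086 and -0.041 and were not called either. All 3 were called lower under quantile normalization (log2 changes -0.164, -0.179 and -0.167, adjusted p = 0.00179, 0.036 and 0.0022), and DLAT and DLD also with the GC trend removed (log2 changes -0.150 and -0.132, adjusted p = 0.0299 and 0.0167). PDHX, the protein that anchors E3 in the complex, was at 28.2, 26.9, 29.4 and 27.2 CPM at low glucose and at 47.6, 43.8, 42.2 and 47.4 CPM at high glucose. It rose by 0.68 (SE 0.048, adjusted p = 3.48e-05), with 12.8 CPM between the nearest libraries of the groups. PDHB, the beta subunit of E1, fell from 33.95 ± 2.15 to 28.2 ± 2.33 CPM (log2 change -0.26, adjusted p = 0.0169). Per kilobase, PDHA1 went from 42.7 to 41.03 and PDHB from 22.5 to 18.7 CPM. Without division by length, the sum of the 5 was 390 ± 10.6 CPM in the low glucose libraries and 389 ± 13.4 CPM in the others.

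Of the 4 kinases that inactivate the complex, PDK4 rose, PDK2 and PDK3 fell and PDK1 was not called. PDK4, which is known to respond to fasting and fat oxidation, was at 4.501, 4.31, 3.82 and 5.17 CPM at low glucose and at 11.3, 11.7, 12.6 and 13.6 CPM at high glucose. It rose by a factor of 2.77 (1.29 on the log2 scale, SE 0.093, adjusted p = 3.82e-05), and its lowest high glucose library was more than 2 times its highest low glucose library. PDK2, the widely expressed kinase, was at 24.01, 23.03, 22.6 and 21.8 CPM at low glucose and at 9.92, 10.1, 9.92 and 8.45 CPM at high glucose. It fell by 1.17 (SE 0.061, adjusted p = 9.3e-06). Exons of SAMD14 on the other strand cover 62.8% of the PDK2 transcript, and SAMD14 itself had means of 7.46 and 2.77 CPM with a change of -1.16 (adjusted p = 0.000828), so without strand the reads of both cannot be told apart.

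PDK3 was at 41.3, 43.6, 45.4 and 42.8 CPM at low glucose and at 25.1, 31.2, 29.7 and 31.02 CPM at high glucose, with high glucose replicate 1 lowest of all 8. It fell by 0.55 (SE 0.071, adjusted p = 0.000633). PDK1, a target of the hypoxia-inducible factor in other settings, was at 10.1 ± 1.43 CPM at low glucose and at 10.99 ± 0.980 CPM at high glucose and was not called (log2 change 0.12, SE 0.10, adjusted p = 0.403). PDP1, the phosphatase that reactivates the complex, rose from 97.2 ± 3.34 to 122 ± 4.12 CPM (log2 change 0.33, SE 0.034, adjusted p = 0.000211).

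Per kilobase of transcript, PDK3 was the main kinase in both groups, with 73.9% ± 1.34 of the 4 at low and 70.4% ± 1.91 at high glucose. The share of PDK4 was 3.70% ± 0.51 at low and 14.3% ± 0.89 at high glucose, and that of PDK2 was 20.2% ± 1.08 and 12.0% ± 1.55. The sum of the 4 kinases was lower at high glucose in spite of the rise of PDK4, 23.9 ± 1.73 against 33.6 ± 0.70 CPM per kilobase. The log2 ratio of PDK4 to PDK2, chosen after the values were seen, was -2.56 to -2.08 in the low and 0.187 to 0.687 in the high glucose libraries. Per kilobase, the share of PDK4 was below that of PDK2 in every low glucose library (3.1% to 4.3% against 19.4% to 21.8%) and above it in every high glucose library (13.1% to 15.1% against 10.1% to 13.8%).

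**Figure D4:**
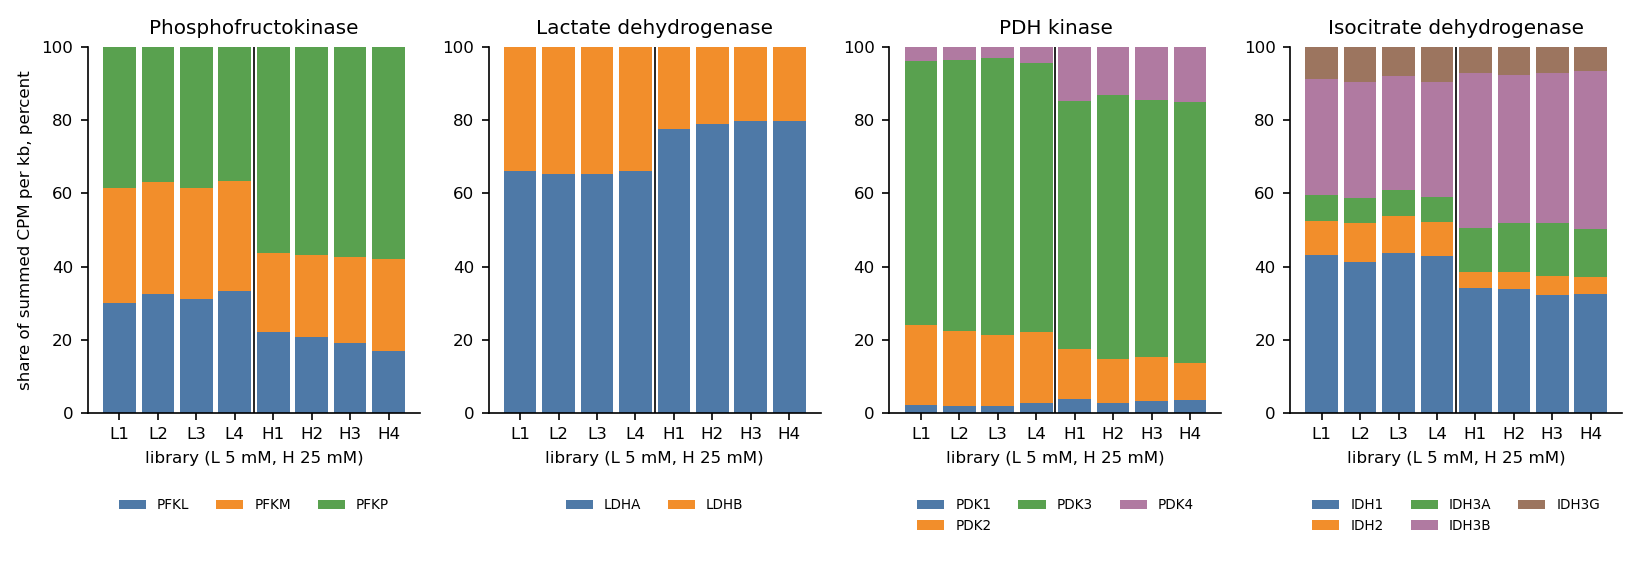
Share of each transcript in the summed CPM per kilobase of its family (vertical axes, percent) in low glucose libraries L1 to L4 and high glucose libraries H1 to H4, for phosphofructokinase, lactate dehydrogenase, pyruvate dehydrogenase kinase and isocitrate dehydrogenase. IDH3A, IDH3B and IDH3G are subunits of the same enzyme, so their shares are not those of separate isoenzymes. From low to high glucose the mean share of PFKP went from 37.7% to 57.2%, that of LDHA from 65.7% to 79.0%, that of PDK4 from 3.70% to 14.3% and that of IDH2 from 9.80% to 4.70%.

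Of the 15 TCA cycle genes, 5 rose, 7 fell and 3 were not called. The 7 genes from citrate synthase to oxoglutarate went in sum from 769 ± 6.30 to 680 ± 12.9 CPM, and the 8 from oxoglutarate to oxaloacetate went from 1194 ± 14.5 to 1155 ± 75.7 CPM. Most of the fall of the first sum was that of the cytosolic IDH1, from a mean of 225 to 151 CPM, and the cytosolic ACO1 fell too. Of the mitochondrial genes in it, CS, IDH2 and IDH3G had lower means and IDH3A and IDH3B higher ones. The first sum thus does not describe a fall shared by the mitochondrial genes. CS, citrate synthase, which starts the cycle, was at 235, 239.5, 236 and 233 CPM at low glucose and at 208, 219, 220.3 and 236 CPM at high glucose. It was not called (log2 change -0.095, adjusted p = 0.0735), with 3 of 4 high glucose libraries below all low glucose libraries, and it was called lower without high glucose replicate 4 (log2 change -0.127, adjusted p = 0.00803) and under quantile normalization (log2 change -0.168, adjusted p = 0.00619). CS shares 30.1% of its words with other genes. ACO1, the cytosolic aconitase that also acts as an iron-responsive RNA-binding protein, was at 47.01, 47.04, 48.3 and 47.3 CPM at low glucose and at 33.9, 34.5, 31.8 and 32.4 CPM at high glucose (log2 change -0.50, SE 0.029, adjusted p = 1.38e-05).

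The isocitrate dehydrogenases moved in opposite directions by cofactor and subunit. IDH2, the mitochondrial enzyme that uses NADP, was at 57.3, 62.6, 61.1 and 54.9 CPM at low glucose and at 24.6, 23.8, 25.6 and 23.5 CPM at high glucose. It fell by 1.24 (SE 0.048, adjusted p = 3.08e-06), and the groups were 29.4 CPM apart at their nearest libraries. IDH1, the cytosolic NADP enzyme, was at 231, 215, 229 and 225 CPM at low glucose and at 165, 147, 144 and 146 CPM at high glucose, again without overlap. It fell by 0.58 (SE 0.047, adjusted p = 6.72e-05).

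IDH3A, the catalytic subunit of the NAD enzyme of the TCA cycle, was at 66.6, 63.6, 65.4 and 63.2 CPM at low glucose and at 102, 102, 114 and 105 CPM at high glucose. It rose by 0.70 (SE 0.039, adjusted p = 1.23e-05), and IDH3B, a second subunit, rose less, from 110.1 ± 2.01 to 126 ± 8.598 CPM (log2 change 0.19, adjusted p = 0.0127). IDH3G, the third subunit, was at 26.6, 28.7, 24.1 and 29.1 CPM at low glucose and at 19.9, 19.1, 17.9 and 17.1 CPM at high glucose and fell by 0.53 (SE 0.073, adjusted p = 0.000882). The subunits of 1 enzyme thus changed in opposite directions. Exons of SSR4 on the other strand cover 9.7% of IDH3G, and SSR4 changed by -0.53 (adjusted p = 0.00771). Exons of ACSBG1 cover 63.9% of IDH3A, but ACSBG1 was at means of 0.152 and 0.256 CPM.

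Per kilobase, IDH1 was above IDH2 in both groups (97.2 against 22.2 CPM at low glucose and 64.9 against 9.16 CPM at high glucose). The summed transcripts of the NADP enzymes and of the subunits of the NAD enzyme went from 227 ± 2.67 to 196 ± 9.27 CPM per kilobase. The log2 ratio of IDH3A to IDH2, chosen after the values were seen, was 0.023 to 0.215 at low and 2.06 to 2.16 at high glucose, a ratio 3.96 times as high.

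In the second part of the cycle, 3 of 8 genes rose, 3 fell and 2 were not called. OGDH and DLST, the E1 and E2 enzymes of the oxoglutarate dehydrogenase complex, changed by 0.094 (adjusted p = 0.0363) and 0.12 (adjusted p = 0.00577). OGDH was at 190.0, 195, 189 and 190.3 CPM at low glucose and at 208, 206, 209.9 and 193 CPM at high glucose, and the groups overlapped in high glucose replicate 4. Its call was lost without low glucose replicate 1, 3 or 4 or high glucose replicate 1, 2 or 3 (adjusted p = 0.0716 to 0.0902), and under quantile normalization its change was -0.003.

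Succinyl-CoA ligase has a common alpha subunit and a beta subunit that sets which nucleotide is made. SUCLA2, the ATP-forming beta subunit, was at 22.7, 24.1, 22.5 and 24.04 CPM at low glucose and at 30.2, 30.5, 28.6 and 27.9 CPM at high glucose and rose by 0.32 (adjusted p = 0.000541). SUCLG2, the GTP-forming beta subunit, was at 18.7, 21.2, 21.5 and 18.7 CPM at low glucose and at 13.6, 13.1, 12.6 and 14.1 CPM at high glucose and fell by 0.55 (SE 0.062, adjusted p = 0.000325). SUCLG1, the alpha subunit, fell from 80.2 ± 0.956 to 60.9 ± 5.92 CPM (log2 change -0.40, adjusted p = 0.00175). The 2 beta subunits thus moved apart, and their log2 ratio, chosen after the values were seen, was 0.067 to 0.361 at low and 0.982 to 1.22 at high glucose. SUCLG2 and SUCLA2 share 24.9% and 20.7% of their words with other genes.

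FH, fumarate hydratase, had the same mean in both groups, 124 CPM (log2 change -0.0023, interval -0.12 to 0.12, adjusted p = 1). MDH1, the cytosolic malate dehydrogenase and the most abundant of the second part, was at 354, 329, 338 and 336 CPM at low glucose and at 377, 318, 283 and 301 CPM at high glucose. It was not called (log2 change -0.093, adjusted p = 0.432) and was called lower without high glucose replicate 1, the highest library (log2 change -0.174, adjusted p = 0.0203). MDH2, the mitochondrial enzyme, fell from 205 ± 4.28 to 173 ± 14.1 CPM (log2 change -0.25, adjusted p = 0.00869).

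Among the side reactions, PCK2 fell and PC rose. PCK2, the mitochondrial phosphoenolpyruvate carboxykinase, which makes phosphoenolpyruvate from oxaloacetate, was at 31.7, 30.6, 28.6 and 28.9 CPM at low glucose and at 12.8, 13.4, 13.1 and 11.1 CPM at high glucose. It fell by 1.19 (SE 0.064, adjusted p = 1.04e-05), and every high glucose library lay below 0.5 of every low glucose library. PC, pyruvate carboxylase, which makes oxaloacetate from pyruvate, was at 27.8, 29.5, 28.9 and 31.3 CPM at low glucose and at 43.4, 37.2, 39.4 and 31.7 CPM at high glucose (log2 change 0.35, adjusted p = 0.0177), with high glucose replicate 4 only 0.349 CPM above the highest low glucose library. ME2, the mitochondrial malic enzyme, was at 10.8 ± 1.12 and 11.7 ± 0.985 CPM and was not called (log2 change 0.11, adjusted p = 0.389).

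High glucose replicate 1 stood apart within its group. It was the highest of the 4 in 30 of the 51 members (58.8%) and the lowest in 6, whereas it was the highest in 40.7% of the genes with a mean of at least 4 CPM. On the log2 scale its median excess over the mean of the other 3 was 0.19 for the 24 members with transcripts under 2500 bases, 22 of which were higher in it, and 0.035 for the 27 longer members, 18 of which were higher in it. The short ones include ALDOA, PGAM1, TPI1, MPC1, MDH1 and GAPDH. The same split by length is not given over all genes, so whether this excess is particular to the members cannot be told. Without this library 18 members were called higher and 17 lower: SLC16A3 and OGDH were lost, and GPI and MDH1 were gained. Summed over the 51 members, it held 12495 CPM, compared with 11019 to 11277 CPM in the other high glucose libraries and 10425 to 10616 CPM at low glucose. With a trend on length removed from each library, 22 members were called higher and 15 lower. That setting also left out genes with a mean under 1 CPM or without a transcript length. The part of length alone in the group differences was thus not measured.

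**Figure D5:**
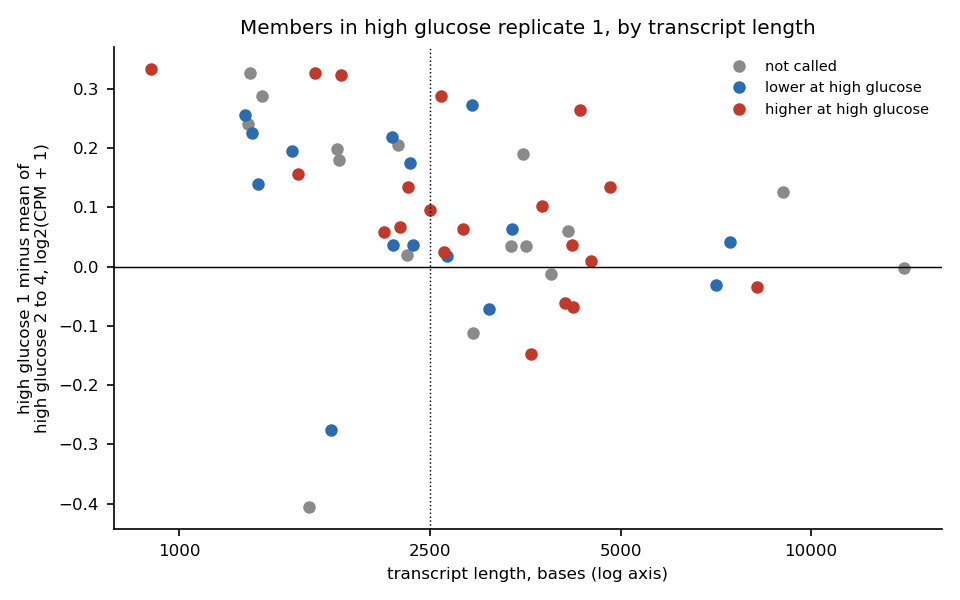
Difference between high glucose replicate 1 and the mean of high glucose replicates 2 to 4 in log2(CPM + 1) (vertical axis) against the length of the canonical transcript in bases (horizontal axis, log scale) for the 51 genes, colored by call as in the plot of changes. Left of the dotted line at 2500 bases, 22 of 24 genes lie above 0, and right of it 18 of 27.

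Other genes of the same pathways were read from a list of 44, of which 37 were in the table. Of these, 10 were called higher, 14 lower and 13 not, and the 64.9% called compares with 46.8% of all genes and 66.3% of those with a mean of at least 4 CPM. Named here by their small adjusted p are ACLY, PGAM5 and OGDHL. ACLY, which cuts citrate into acetyl-CoA in the cytosol, fell from 561 ± 7.57 to 384 ± 10.6 CPM (log2 change -0.55, adjusted p = 6.1e-06). PGAM5, a mitochondrial phosphatase named for its likeness to the mutase, rose (log2 change 0.80, adjusted p = 6.74e-05), and OGDHL, a homolog of OGDH, fell from 18.2 to 6.397 CPM (log2 change -1.39, adjusted p = 6.94e-05). Succinate dehydrogenase, a further enzyme of the cycle, is given outside the naming rule. SDHA, SDHB and SDHD rose by 0.34, 0.26 and 0.27 (adjusted p = 0.00078, 0.0227 and 0.0187), and SDHC fell by 0.34 (adjusted p = 0.00519).

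Of 17 regulators known to act on transcription of these enzymes, 8 were called higher, 3 lower and 6 not, and the 64.7% called is near the 66.3% of genes with a mean of at least 4 CPM. PPARGC1A, a coactivator of mitochondrial genes, was at 18.8, 19.5, 16.6 and 17.99 CPM at low glucose and at 52.6, 66.6, 64.6 and 72.7 CPM at high glucose, a change of 1.75 (adjusted p = 1.39e-05). EPAS1, the alpha subunit of hypoxia-inducible factor 2, rose from 65.6 to 94.6 CPM (log2 change 0.52, adjusted p = 6.92e-05). ARNT2, a partner of such factors, fell from 25.6 to 11.5 CPM (log2 change -1.08, adjusted p = 3.19e-06), and HIF1AN, which hydroxylates and inhibits them, fell from 52.9 to 41.1 CPM (log2 change -0.36, adjusted p = 5.95e-05). These are transcript levels, and the activity of the factors was not measured.

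Promoters were read for the 47 members with an entry in the RefSeq table on GRCh38.p14, which gave 76 start sites for these 47 genes and 35116 for all genes. The 250 bases before each start were searched on both strands for ACGTG, the core of the hypoxia response element, for CACGTG, the E-box, which contains ACGTG on both strands and so counts under both, for AAGGTCA, the core of the element bound by estrogen-related receptors, and for TGATGNAA, a core of the ATF4 element. ACGTG was found before 24 of 76 member starts (31.6%) and 18.5% of all starts, CACGTG before 7 (9.21%) and 6.34%, AAGGTCA before 4 (5.26%) and 3.44%, and TGATGNAA before 0 of 76 and 3.14%. ACGTG was held by 11 of 31 starts of members called higher, 6 of 23 of members called lower and 7 of 22 of members not called. Starts of 1 gene overlap or share sequence, so these shares are descriptions without a test, and a match is a description and not a binding site.

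The windows below show where these letters stand in members that rose, fell or were not called. Each is the 250 bases before the start, 5′ to 3′ on the strand of the gene, from RefSeq on GRCh38.p14, with the searched motifs in capitals. LDHA, which rose, holds CACGTG 2 times and ACGTG on its own once more, and PGK1, which rose, holds ACGTG 2 times. PDHB, which fell, and ALDOC, which was not called, each hold CACGTG and a separate ACGTG on the opposite strand, and ALDOC also holds AAGGTCA. SUCLA2, which rose, holds AAGGTCA only, and PDK4, the member with the largest rise, holds none of the 4 motifs. The windows lie at chr11:18394313-18394562 (plus strand, the first of 2 starts of LDHA), chrX:78103998-78104247 (plus), chr3:58433833-58434082 (minus), chr17:28576896-28577145 (minus), chr13:48001274-48001523 (minus) and chr7:95596517-95596766 (minus).
LDHA: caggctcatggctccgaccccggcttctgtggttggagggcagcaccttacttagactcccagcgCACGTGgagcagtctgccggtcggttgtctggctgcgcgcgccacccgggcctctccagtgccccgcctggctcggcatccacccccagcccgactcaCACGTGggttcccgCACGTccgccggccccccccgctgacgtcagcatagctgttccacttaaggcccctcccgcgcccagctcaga
PGK1: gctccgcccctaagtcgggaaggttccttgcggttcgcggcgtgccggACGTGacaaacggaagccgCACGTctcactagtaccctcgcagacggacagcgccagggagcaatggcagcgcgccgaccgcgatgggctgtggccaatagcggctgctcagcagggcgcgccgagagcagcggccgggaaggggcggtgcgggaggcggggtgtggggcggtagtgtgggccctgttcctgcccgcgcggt
PDHB: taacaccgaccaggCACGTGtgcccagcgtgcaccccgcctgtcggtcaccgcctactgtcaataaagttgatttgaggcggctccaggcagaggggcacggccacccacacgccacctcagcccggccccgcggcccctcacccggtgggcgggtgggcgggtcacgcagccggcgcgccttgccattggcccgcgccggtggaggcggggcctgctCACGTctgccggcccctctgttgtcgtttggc
ALDOC: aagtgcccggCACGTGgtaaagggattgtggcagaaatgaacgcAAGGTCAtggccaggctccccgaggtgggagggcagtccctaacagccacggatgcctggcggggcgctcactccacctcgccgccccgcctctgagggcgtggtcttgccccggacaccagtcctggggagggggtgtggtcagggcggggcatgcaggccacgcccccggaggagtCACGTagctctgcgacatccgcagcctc
SUCLA2: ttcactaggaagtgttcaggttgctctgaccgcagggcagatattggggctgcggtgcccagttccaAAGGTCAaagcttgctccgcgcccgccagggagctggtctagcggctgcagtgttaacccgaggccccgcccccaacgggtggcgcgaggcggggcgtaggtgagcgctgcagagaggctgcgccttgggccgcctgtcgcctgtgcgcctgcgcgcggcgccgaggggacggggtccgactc
PDK4: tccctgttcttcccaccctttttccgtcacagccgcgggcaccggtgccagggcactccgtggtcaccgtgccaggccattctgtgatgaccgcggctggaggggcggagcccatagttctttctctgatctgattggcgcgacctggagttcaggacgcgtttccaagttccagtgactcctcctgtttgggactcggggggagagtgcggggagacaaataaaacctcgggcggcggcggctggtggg

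Of the 35 called members, 28 kept their call and direction under all 16 alternatives tried, among them PFKL, PFKM, PFKP, LDHA, SLC16A1, PDK2, PDK3, PDK4, IDH1, IDH2, IDH3A and PCK2. The remaining 7, ALDOA, LDHB, SLC16A3, IDH3B, OGDH, DLST and PC, lost it under at least 1 alternative. Of the members not called, GPI, GAPDH, ENO1, MPC2, PDHA1, DLAT, DLD, CS and MDH1 gained a call under at least 1.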

How the data were processed

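RNA of MDA-MB-157 cells was sequenced in 8 libraries, 4 per group, by standard Illumina protocols, and samples were grouped by the treatment label. The authors deposited 1 table of CPM values scaled with TMM factors; the submitters' processing notes name edgeR and hg38, whereas the study's methods describe hg19 for tumors, so the build and the counting tool of the table are not established, nor is the use of strand. Estimated counts under the table are fractional, whole reads were not recovered, and no count test was used. Of 21077 lines, 18 pseudoautosomal Y copies were left out.

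Values were analysed as log2(CPM + 1), and fold changes on this scale understate the change of low genes. All 21059 genes were fitted as 2 groups without covariates in limma 3.58.1 (R 4.3.3), using lmFit and trended eBayes and 2-sided p-values, with Benjamini-Hochberg adjustment over all genes. Intervals are 95% confidence intervals, and depths and floors cover counting error only. The script was tested on simulated data. Alternatives changed the pseudocount (0.1), a filter (mean of at least 1 CPM), the scaling and the trends on transcript length and GC content. They also added the replicate block or left out each library in turn. The GC trend was chosen after seeing the data. Each trend setting was fitted on the 14227 genes with a transcript length and a mean of at least 1 CPM.

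The members and lists were chosen with earlier results of these data known. Full statistics are given for members called with a change of at least 0.5 and no overlap, for the most abundant member of each role group and for all PDK, PFKFB, LDH and SLC16A members, and of each other list at most 4 genes with the smallest adjusted p and a mean of at least 5 CPM are named, except results that are not reported here. Isoform ratios have no test. Lengths, overlaps and shared 31-base words came from GENCODE release 44 mapped to GRCh37 (canonical transcripts), and promoters from RefSeq on GRCh38.p14.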

Additional observations from a re-analysis of the deposited data

Results flagged for a closer look

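In each group of 4 libraries, the gap between the highest or lowest library and its nearest neighbor was compared with the whole range of the group, for 51 members and the ratios, 130 groups in all. The gap exceeded Dixon's 95% critical value for 4 values in 8 groups, and chance alone gives about 6.5. No explanation was weighed for any of them.

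At high glucose, LDHB in replicate 1 was at 162 CPM and the others at 137 to 139 CPM (gap 0.937 of the range), and IDH1 in replicate 1 was at 165 CPM and the others at 144 to 147 CPM (0.863). PFKP in high glucose replicate 4 was at 144 CPM and the others at 149.6 to 150.4 CPM (0.883), and PDK2 in replicate 4 was at 8.45 CPM and the others at 9.92 to 10.1 CPM (0.902). At low glucose, PDP1 in replicate 4 was at 92.3 CPM and the others at 98.4 to 99.6 CPM (0.838). DLST in low glucose replicate 3 was at 205 CPM and the others at 212 to 213 CPM (0.934), and FH in replicate 1 was at 130.3 CPM and the others at 121 to 123 CPM (0.831). The log2 ratio of PDK1 to PDP1 was -3.64 in high glucose replicate 2 and -3.43 to -3.42 in the other 3 (0.955).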

How the results depend on the processing

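Under the 16 alternatives, 17 to 22 members were called higher and 14 to 20 lower, against 20 and 15, and 8899 to 10156 genes were called, against 9849. No ratio of isoforms changed its direction when a library was left out. The replicate block gave 17 members higher and 15 lower and 8921 genes; ALDOA, SLC16A3, OGDH and PC lost their call (adjusted p = 0.0727, 0.127, 0.0696 and 0.0727) and MPC2 gained one (0.043). Deviations of libraries with the same number had correlations of -0.04 to 0.069 over 11297 genes, and those with different numbers -0.136 to 0.075. Correlations over all these genes cannot tell whether same-numbered libraries share a culture or a batch. Quantile normalization removed the calls of IDH3B (0.339), DLST (0.235) and OGDH, whose change became -0.003, and added lower calls for GPI (0.00051), PDHA1 (0.00179), DLD (0.0022), CS (0.00619) and DLAT (0.036).

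Changes of members near 0 took the other sign, and the cause was not tested. With median-of-ratios scaling these were TPI1 (0.011), GAPDH (0.038), DLD (0.001) and FH (0.04), and with equal column totals GAPDH (0.021) and FH (0.023). With quantile normalization they were GAPDH (0.142) and PFKFB4 (0.105). With the length trend removed they were TPI1 (0.075), GAPDH (0.105), ENO2 (0.002), FH (0.082) and MDH1 (0.016), and with the GC trend removed GPI (0.012), TPI1 (0.063), GAPDH (0.124), ENO2 (0.038) and PFKFB4 (0.066). GAPDH was called higher with either trend removed (adjusted p = 0.0131 and 0.0427), as was ENO1 (0.000573 and 0.00596); removing the GC trend also gave lower calls for DLAT (0.0299) and DLD (0.0167), and removing the length trend a higher call for MPC2 (0.0131). Leaving out 1 library at a time gave TPI1 -0.104 to 0.002, GAPDH -0.065 to 0.041 and FH -0.047 to 0.031. No member had fewer than an estimated 45 reads in any library, and precision is limited by 4 libraries a group. Spread did not follow level alone. For ALDOC, a low member, the SD was 16.0% of the mean at low and 17.5% at high glucose. At high glucose it was 13.9% for the abundant ALDOA and 8.31% for the low member PDK4. The medians over the members were 3.66% and 6.8%. The part of counting depth in this spread was not tested.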
